A study of Mus musculus with 12 samples.

Results

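The miRNAs of the cerebral cortex were compared between TLR4-KO mice that drank alcohol for a long time (TLR4-KO + EtOH) and TLR4-KO mice that drank water (TLR4-KO). The comparison takes the 3 small RNA libraries of each group by their labels, 6 of the 12 libraries of the series, over all 589 miRNA precursors of the deposited table. The animals were female C57BL/6J mice, 7 weeks old at the start, and both groups carried the same deletion of TLR4 (TLR4−/−). The alcohol group had 10% (v/v) alcohol in its drinking water for 5 months, and all mice ate solid food freely. WT mice of the same strain, given alcohol (WT + EtOH) or water (WT), supply the other 6 libraries, which enter the estimate of the spread and the test of the difference between genotypes. Each library was made from cortex RNA of 3 mice put together, from the 9 best RNA samples of the group, so an SD over 3 libraries is a spread between pools and not between mice. Small RNA libraries hold no Tlr4 mRNA, and the deletion was not checked in them.

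TLR4 is a receptor of innate immunity that recognises bacterial lipopolysaccharide and, through adaptor proteins, activates the transcription factor NF-kB. NF-kB induces miR-146a, which represses the signalling proteins IRAK1 and TRAF6 of the same pathway, and miR-155, which is induced in activated macrophages and microglia. A miRNA precursor is a hairpin that is processed to a mature RNA, whose seed near the 5′ end pairs with target mRNAs, so that miRNAs with the same seed share many targets.

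The deposited value of a precursor is a score without a unit that, judged from the values, lies on a rescaled log scale. The same score levels recur in different libraries. The median of the 190 precursors above 0 in all libraries lies between 48.9 and 49.2 in each library. The scores thus appear matched between libraries by rank. A difference may reflect the rank of a precursor within its library and need not track its amount. The highest score is 135 in each library, precursors without signal are at 0, and differences between scores are not folds. The depth behind a score is not given in the table, and a score of 0 does not show that a miRNA is absent. Groups were compared with limma over all 12 libraries, p-values were adjusted by the Benjamini-Hochberg method across all 589, and an adjusted p under 0.05 counts as a call. A difference is the mean of TLR4-KO + EtOH minus that of TLR4-KO, with its standard error (SE), unless another group is named. An exact permutation test of 3 libraries against 3 cannot go below p = 0.1, so that calls depend on how limma pools the spread over groups and precursors. A p that misses the threshold does not show that the values did not differ.

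Of neuron-enriched miRNAs, all 14 listed precursors were above 0 in at least 1 of the 6 libraries, not each of them in all, and mmu-mir-138-1, from a miRNA that acts at dendritic spines, ranked 20 by its mean score among the 324 that were above 0 in at least 1 library. The defining oligodendrocyte precursors mmu-mir-219a-1 and mmu-mir-219a-2 were at 0 in the 6 libraries, as were the erythroid mmu-mir-144, the myeloid mmu-mir-223 and the choroid plexus and ciliated cell precursors mmu-mir-449a, mmu-mir-449c and mmu-mir-1264. The TLR4-KO libraries had 262, 229 and 216 precursors above 0, and the TLR4-KO + EtOH libraries 262, 247 and 236.

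The libraries were compared by rank. Over the 190 precursors above 0 in all libraries, the mean Spearman correlation of TLR4-KO replicate 1 with the others was 0.915, the lowest of the 12, against 0.957 and 0.948 for TLR4-KO replicates 2 and 3. TLR4-KO + EtOH replicate 1 had 0.936 and replicates 2 and 3 had 0.958 and 0.956. The second lowest of the 12 was WT + EtOH replicate 1 with 0.929. The lowest score above 0 also differed between libraries, with 4.20, 11.3 and 14.1 in TLR4-KO and 4.08, 5.26 and 7.29 in TLR4-KO + EtOH. Without both libraries of replicate 1, the direction of some alcohol differences turned or a call was lost. For the precursors named by the rule given with the processing, that value stands with the difference.

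In the TLR4-KO cortex 2 precursors rose with alcohol, mmu-mir-3087 and mmu-mir-344d-3, which is 0.34% of the 589 tested by limma. No precursor was called lower (0%). At an unadjusted p under 0.05 there were 25 higher precursors (4.24%) and 16 lower ones (2.72%). The 3 libraries of each group did not overlap in 23 precursors that were higher with alcohol (3.9%) and in 13 that were lower (2.21%). Of the 324 precursors above 0 in any library, 154 were higher with alcohol and 27 equal, most of these at 0 in both groups, and the others lower, with a median difference of 0. In RNA of whole cortex, fewer cells of a type and less RNA per cell cannot be told apart.

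**Figure D1:**
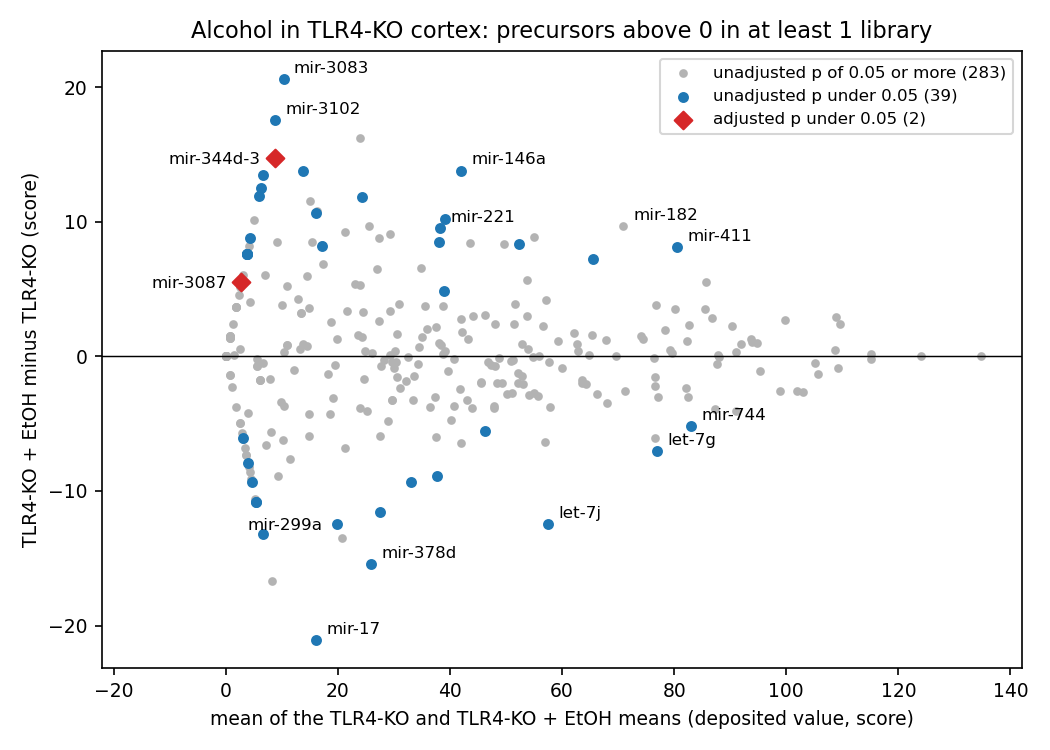
Each point is 1 of the 324 precursors above 0 in any library, with the mean of the TLR4-KO and TLR4-KO + EtOH means on the x axis and their difference on the y axis, both in deposited score units. The 2 called precursors (red diamonds) lie at low scores, the 39 others with an unadjusted p under 0.05 (blue) lie on both sides of 0, and the differences narrow toward high scores.

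The 3 libraries of TLR4-KO + EtOH gave 4.08, 5.26 and 7.29 for mmu-mir-3087, and those of TLR4-KO gave 0. It was above 0 in no WT or WT + EtOH library, so every library of the alcohol group lay above all the others. These 3 scores are the lowest level above 0 of their libraries, shared with other precursors (5, 4 and 3 precursors at that level), and so stand at the edge of detection. The score rose by 5.54 (SE 0.651, limma adjusted p = 0.0129). The SE pools the spread of the alcohol group with that of the other groups, which is 0 because their libraries are all at 0, and the p depends on these zeros. The precursor lies at chr2:25442779-25442834 of GRCm38, on the plus strand in an intron of Abca2, which encodes a lipid transporter found in oligodendrocytes. The call was lost after quantile normalization (adjusted p = 0.119), with only precursors above 0 in at least 3 libraries (0.103), with these groups alone (0.464) and without TLR4-KO + EtOH replicate 2 (0.0704). It was also lost with the replicate number as a block in these groups alone. The direction turned when each 0 was raised to the lowest score of its library (difference −4.31, limma adjusted p = 0.532), since TLR4-KO replicates 2 and 3 have a higher lowest score than the alcohol libraries.

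For mmu-mir-344d-3 the libraries of TLR4-KO gave 4.20, 0 and 0 and those of TLR4-KO + EtOH 19.4, 18.1 and 11.0. The groups did not overlap, and the WT libraries (4.20, 4.23 and 5.23) and WT + EtOH libraries (2.72, 0 and 0) were also below all those of TLR4-KO + EtOH. The 11.0 is the second lowest level of its library and lies below the lowest score above 0 of TLR4-KO replicates 2 and 3, where mmu-mir-344d-3 was at 0, so that the separation from these rests in part on scores at the edge of detection. The mean rose from 1.40 ± 2.43 to 16.2 ± 4.57 (SD, n = 3; difference 14.8, SE 2.18, limma adjusted p = 0.0347). It lies at chr7:61726249-61726328, on the minus strand in an intron of the long non-coding RNA gene A230057D06Rik, which also spans mmu-mir-344b. With 1 library left out mmu-mir-344d-3 was called in 4 of 12 fits, and the call was lost when the library left out was any of WT, TLR4-KO + EtOH replicate 1 or 2, WT + EtOH replicate 2, or replicate 2 or 3 of TLR4-KO (adjusted p from 0.0624 to 0.21 by limma). Without both libraries of replicate 1 it was not called (difference 14.5, limma adjusted p = 0.149). The call was also lost after quantile normalization (adjusted p = 0.0511), with each 0 raised to the lowest score (0.42) and with these groups alone (0.464). With the replicate number as a block in these groups alone it was lost as well.

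Of the 4 precursors of the miR-344 family in the table, mmu-mir-344h-1 and mmu-mir-344h-2 were at 0 in all 6 libraries. mmu-mir-344b was at 35.7, 0 and 20.9 in TLR4-KO and at 13.7, 18.1 and 20.8 with alcohol, so the groups overlapped (difference −1.33, limma adjusted p = 1). For mmu-mir-344b the direction turned without both libraries of replicate 1 (difference 9.01), and with 1 library left out the difference ranged from −10.8 to 7.08. The median difference of the 2 members above 0 was 6.72. The summed score of the family was 39.9, 0 and 20.9 in TLR4-KO and 33.1, 36.2 and 31.8 in TLR4-KO + EtOH. Mature sequences were taken from RefSeq (GRCm38.p6), which holds them for 477 of the 589 precursors and for 59 of the 71 that the rule for named precursors selects. Those of the called precursors and of mmu-mir-344b are shown 5′ to 3′ because mmu-mir-344d-3 and mmu-mir-344b share a seed, bases 2 to 8, in capitals, on the 5p arm and differ on the 3p arm.
miR-3087-5p: cAGGGCAGggcaagaguugag
miR-3087-3p: uAACUCACugucauguccuca
miR-344d-3-5p: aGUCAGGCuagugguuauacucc
miR-344b-5p: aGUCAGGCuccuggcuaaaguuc
miR-344d-3p: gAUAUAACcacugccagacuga
miR-344b-3p: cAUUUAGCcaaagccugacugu
The table gives 1 score per precursor, so the arm behind a score was not resolved.

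**Figure D2:**
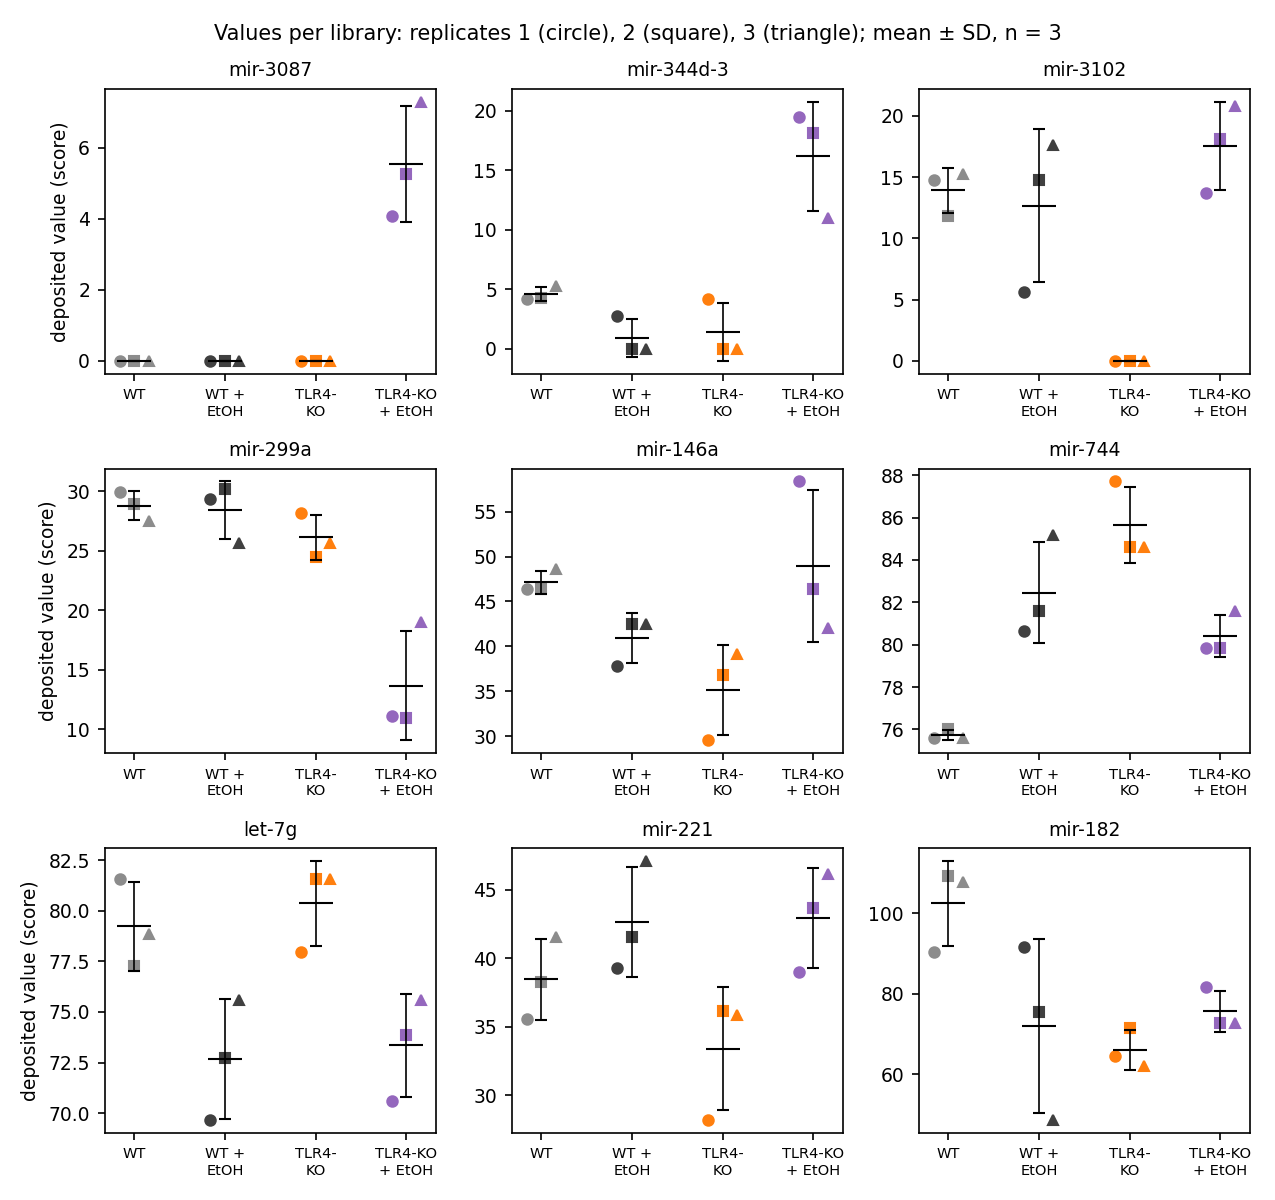
Deposited score (y axis, a scale per panel that need not start at 0) of 9 precursors in the 3 libraries of each group (x axis), with replicates 1, 2 and 3 as circle, square and triangle and the mean ± SD (n = 3) in black. The groups TLR4-KO and TLR4-KO + EtOH do not overlap in any of the 9. mmu-mir-3087, mmu-mir-344d-3, mmu-mir-3102, mmu-mir-146a, mmu-mir-221 and mmu-mir-182 lie higher in all TLR4-KO + EtOH libraries than in any TLR4-KO library. mmu-mir-299a, mmu-mir-744 and mmu-let-7g lie lower.

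A group of precursors was at 0 in all TLR4-KO libraries and above 0 in all of TLR4-KO + EtOH. There were 11 of these, and 3 in the opposite direction. mmu-mir-3102, which lies in an exon of Arhgef17 (chr7:100882306-100882409, minus strand), was at 13.7, 18.1 and 20.8 with alcohol (difference 17.5, SE 2.99, limma adjusted p = 0.0633). The WT libraries (14.7, 11.8 and 15.2) and WT + EtOH libraries (5.63, 14.7 and 17.6) had scores of the same range, so TLR4-KO was the group at 0. It was called with only precursors above 0 in at least 3 libraries (limma adjusted p = 0.0229) and without WT + EtOH replicate 1 (0.013) or 3 (0.0436). mmu-mir-3083 was at 22.4, 22.0 and 17.5 with alcohol (difference 20.6, SE 5.32, limma adjusted p = 0.279). It was at 21.7, 17.2 and 17.6 in WT and at 25.4, 14.7 and 0 in WT + EtOH. It was called without WT + EtOH replicate 3, the library at 0 (limma adjusted p = 0.0347).

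Of the 11 precursors, 6 had the same scores, 4.54, 7.27 and 11.0, which is the second lowest level of each TLR4-KO + EtOH library. They were mmu-mir-326, from an intron of the beta-arrestin gene Arrb1, mmu-mir-714, mmu-mir-448, from an intron of the serotonin receptor gene Htr2c, and, chosen after their values were seen, mmu-mir-24-1, mmu-mir-467a-9 and mmu-mir-7068. The difference was 7.59, with an adjusted p from limma of 0.164 for mmu-mir-326, 0.203 for mmu-mir-714 and 0.461 for mmu-mir-448. With mmu-mir-3087, 7 of the 11 were at the lowest or second lowest level in every alcohol library. When each 0 was raised to the lowest score of its library, mmu-mir-326, mmu-mir-714 and mmu-mir-448 were lower with alcohol (difference −2.26). The remaining ones were mmu-mir-539, in the imprinted cluster described with its list, and mmu-mir-6516, named after its values were seen, at 8.46, 18.1 and 11.0.

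In the opposite direction, mmu-mir-3473d and mmu-mir-3470a shared the scores 4.20, 11.3 and 17.0 in TLR4-KO and were at 0 with alcohol (adjusted p = 0.279 and 0.461 from limma). mmu-mir-5122 was at 5.23, 15.3 and 19.2 in TLR4-KO and at 0 with alcohol (difference −13.2, limma adjusted p = 0.341). Without TLR4-KO replicate 1, mmu-mir-3473d was called (difference −14.1, limma adjusted p = 0.0399). mmu-mir-3473d and mmu-mir-3470a were at the lowest or second lowest level of each TLR4-KO library.

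Members of a list are counted as above 0 when they were so in any of the 12 libraries. Among miRNAs of TLR4 and NF-kB signalling, 12 of the 13 listed precursors were above 0, 6 higher and 6 lower with alcohol, with a median difference of 0.0378. None was called. mmu-mir-146a was at 29.6, 36.8 and 39.1 in TLR4-KO and at 58.3, 46.4 and 42.1 in TLR4-KO + EtOH. The groups did not overlap, TLR4-KO replicate 1 being the lowest and TLR4-KO + EtOH replicate 1 the highest (35.2 ± 4.98 and 49.0 ± 8.42, SD, n = 3; difference 13.8, SE 4.10, limma adjusted p = 0.394). Without both libraries of replicate 1 the difference was 6.30 (limma adjusted p = 0.74), and the part of these libraries in it was not tested. In the WT background mmu-mir-146a was at 46.4, 46.4 and 48.6 without and at 37.8, 42.5 and 42.5 with alcohol, a difference of −6.21. The alcohol effects of the genotypes differed by 20.01 (SE 5.80, limma adjusted p = 0.194), which was not called. mmu-mir-146b had a difference of −0.673, and mmu-mir-155 was at 4.20, 17.8 and 0 in TLR4-KO and at 0 in the 3 alcohol libraries, with a group overlap at 0. mmu-mir-21a, a miRNA induced in reactive glia, was at 39.6, 32.1 and 50.2 in TLR4-KO and 40.6, 44.8 and 44.7 with alcohol, which overlapped (difference 2.76, from −1.51 to 7.53 with 1 library left out). The most abundant members, mmu-mir-125b-2 and mmu-mir-125b-1, had differences of 0.207 and −0.885. The 3 precursors of miR-9, a miRNA of neural progenitors, had 0.115, −0.0395 and −0.541. The sign for mmu-mir-9-2 turned after centring (0.0129) and without both libraries of replicate 1 (0.0814).

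mmu-mir-221 and mmu-mir-222 are made from a shared transcript on the X chromosome and repress the cell cycle inhibitor p27. mmu-mir-221 (chrX:19146294-19146388, minus strand) was at 28.2, 36.1 and 35.9 in TLR4-KO and at 39.0, 43.6 and 46.2 with alcohol. All 3 alcohol libraries were above the TLR4-KO libraries (difference 9.52, SE 3.07, limma adjusted p = 0.433). With the replicate number as a replicate block over all 12 libraries, which ties the WT libraries by number as well, mmu-mir-221 was called higher (limma adjusted p = 0.0335). With the block in the 6 libraries of the compared groups alone it was not called (limma adjusted p = 1). mmu-mir-222, chosen after its values were seen, was at 20.9, 0 and 0 and at 26.7, 18.1 and 17.5, so that 1 TLR4-KO library lay above 2 of the alcohol libraries. The mature miR-221 is shown for the seed, GCUACAU, that among the precursors of the table with a RefSeq sequence only mmu-mir-222 shares.
miR-221-3p: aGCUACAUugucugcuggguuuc

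The miR-183 cluster (miR-183, miR-96 and miR-182), first known from sensory organs, and the miR-200 family, which holds cells in an epithelial state, were among the miRNAs that the study assessed by RT-qPCR. Of 7 listed precursors 6 were above 0 in some library, 2 higher, 2 lower and 2 at 0 in all 6 libraries compared. mmu-mir-182 was at 64.6, 71.5 and 62.0 in TLR4-KO and at 81.6, 72.7 and 72.7 with alcohol. The groups did not overlap, yet the difference of 9.65 was below its SE of 10.1, which includes the wide spread of the WT groups (limma adjusted p = 1). mmu-mir-183 was at 50.2, 56.1 and 45.6 and at 59.7, 60.2 and 58.6, again without overlap (difference 8.87, SE 9.82, limma adjusted p = 1). For mmu-mir-182 the WT difference with alcohol was −30.5. mmu-mir-96 was at 0 in all 6 libraries. mmu-mir-200a was at 6.87, 17.8 and 0 and mmu-mir-200b at 5.23, 15.3 and 0 in TLR4-KO, and both were at 0 with alcohol, overlapping at 0. The summed score of the list was 127, 161 and 108 in TLR4-KO and 141, 133 and 131 in TLR4-KO + EtOH.

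The imprinted Dlk1-Dio3 region of chromosome 12 holds a large cluster of miRNAs expressed from the maternal allele, many of them in neurons. Of its 52 listed precursors, 40 were above 0, with 17 higher, 22 lower and 1 equal, with a median difference of −0.772. An unadjusted p under 0.05 was found for 9 of the 40, against 41 of the 324 above 0 in any library. None was called. The libraries of the groups did not overlap in mmu-mir-127, mmu-mir-376a, mmu-mir-411 and mmu-mir-539, which were higher with alcohol, and in mmu-mir-299a and mmu-mir-666, which were lower, against 23 and 13 of the 324. The summed score of the cluster was 1459, 1373 and 1364 in TLR4-KO and 1386, 1404 and 1363 with alcohol.

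mmu-mir-299a was at 28.2, 24.5 and 25.7 in TLR4-KO and at 11.1, 10.9 and 19.0 with alcohol. All alcohol libraries lay below the TLR4-KO libraries, and also below the WT (29.9, 29.0 and 27.5) and WT + EtOH libraries (29.3, 30.2 and 25.7). The mean was 26.1 ± 1.90 in TLR4-KO and 13.7 ± 4.60 with alcohol (SD, n = 3; difference −12.4, SE 2.27, limma adjusted p = 0.0759), the smallest p of the lower precursors. It was called with only precursors above 0 in at least 3 libraries (limma adjusted p = 0.0393) and without TLR4-KO + EtOH replicate 3 (difference −15.1, limma adjusted p = 0.00437). mmu-mir-411, which lies beside it on the same strand (chr12:109710175-109710256 and chr12:109710638-109710700), was at 72.7, 78.8 and 78.0 in TLR4-KO and at 90.3, 83.7 and 79.9 with alcohol. The neighbours thus had opposite signs (difference 8.13 for mmu-mir-411, SE 2.61, limma adjusted p = 0.433). Both mature arms of miR-299a and the 5p arm of miR-411 are shown since these neighbours share no seed.
miR-299a-5p: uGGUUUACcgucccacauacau
miR-299a-3p: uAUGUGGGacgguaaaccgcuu
miR-411-5p: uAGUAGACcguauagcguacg

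Other members of the cluster differed in both directions. mmu-mir-376a was at 10.9, 20.5 and 24.0 in TLR4-KO and at 34.8, 27.7 and 28.5 with alcohol (difference 11.8, SE 3.62, limma adjusted p = 0.407). mmu-mir-127, transcribed antisense to Rtl1, was at 58.3, 64.6 and 63.0 and at 74.0, 66.0 and 67.7 (difference 7.24, SE 2.33, limma adjusted p = 0.433). In both, as in mmu-mir-411, TLR4-KO replicate 1 was the lowest and TLR4-KO + EtOH replicate 1 the highest of its group. Without these libraries the differences were 5.85 for mmu-mir-376a, 3.04 for mmu-mir-127 and 3.39 for mmu-mir-411, each with an adjusted p of 1 from limma. mmu-mir-539 was at 0 in TLR4-KO and at 8.46, 14.5 and 17.5 with alcohol (difference 13.5, limma adjusted p = 0.279). mmu-mir-666 was at 52.7, 47.1 and 47.4 and at 43.1, 46.0 and 41.5, without overlap (difference −5.54, limma adjusted p = 0.491). mmu-mir-154 (difference 4.87), mmu-mir-540 (8.17) and mmu-mir-381 (8.80) had an unadjusted p under 0.05 and groups that overlapped. With 1 library left out their differences ranged from 2.75 to 6.32, from 5.10 to 12.1 and from 5.46 to 13.2. The most abundant member, mmu-mir-541, had a difference of 1.17 (from −0.145 to 2.31 with 1 library left out).

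The let-7 family, which represses growth and cell cycle genes in mature cells, had all 13 precursors above 0, 4 higher and 9 lower with alcohol, with a median difference of −2.66 against 0 over all precursors. None was called. mmu-let-7g (intron of Wdr82, chr9:106178840-106178927) was at 78.0, 81.6 and 81.6 in TLR4-KO and at 70.6, 73.9 and 75.6 with alcohol. The groups did not overlap (difference −7.02, SE 1.98, limma adjusted p = 0.341). The WT difference for mmu-let-7g was −6.56, and the difference of the effects was −0.463 (limma adjusted p = 1). mmu-let-7j was at 74.8, 60.0 and 56.1 and at 47.3, 52.7 and 53.6, also without overlap (difference −12.4, SE 4.46, limma adjusted p = 0.533), and without both libraries of replicate 1 the difference was −4.88. mmu-let-7b was at 98.3, 92.4 and 88.7 and at 88.7, 91.7 and 86.9, with overlap (difference −4.04, and −1.26 without both libraries of replicate 1). The most abundant members mmu-let-7c-2 and mmu-let-7c-1 had −2.66 and −2.54, and 0 without both libraries of replicate 1. The summed score of the family was 1102, 1083 and 1074 in TLR4-KO and 1059, 1053 and 1047 with alcohol. The mature sequences show the seed GAGGUAG, which 11 precursors of the table with a RefSeq sequence share, and how mmu-let-7g differs from its relatives after it.
let-7g-5p: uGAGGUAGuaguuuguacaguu
let-7b-5p: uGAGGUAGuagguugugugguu
let-7c-5p: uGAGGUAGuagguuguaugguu

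Other precursors were lower with alcohol. mmu-mir-744, from an intron of the MAP kinase kinase gene Map2k4 (chr11:65734733-65734832, minus strand), was at 87.7, 84.6 and 84.6 in TLR4-KO and at 79.9, 79.9 and 81.6 with alcohol, without overlap (difference −5.20, SE 1.26, limma adjusted p = 0.228). mmu-mir-378d was at 39.0, 26.1 and 35.9 and at 15.5, 16.8 and 22.4 (difference −15.4, SE 3.52, limma adjusted p = 0.203). Neither was called, although all alcohol libraries were below the TLR4-KO libraries, except mmu-mir-378d without TLR4-KO replicate 2 (difference −19.2, limma adjusted p = 0.0395). mmu-mir-34a, a p53-induced miRNA, was at 40.6, 33.1 and 39.6 and at 25.7, 29.0 and 30.7 (difference −9.33, limma adjusted p = 0.675). mmu-mir-17, of the growth-promoting miR-17-92 cluster, was at 31.9, 26.1 and 21.8 and at 5.70, 10.9 and 0 (difference −21.1, SE 8.21, limma adjusted p = 0.637). mmu-mir-296 was at 38.3, 26.7 and 35.1 and at 23.7, 26.5 and 15.2 (difference −11.6, limma adjusted p = 0.461). In mmu-mir-34a, mmu-mir-17 and mmu-mir-296, too, the groups did not overlap. Without both libraries of replicate 1 the differences were −3.88 for mmu-mir-744, −11.4 for mmu-mir-378d and −6.52 for mmu-mir-34a.

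Replicate 1 had the extreme scores in many of the precursors with an unadjusted p under 0.05. Of the 11 higher ones that were above 0 in all 12 libraries, TLR4-KO replicate 1 was the lowest of its group in 11, against 114 of all 190 such precursors. It was the lowest while TLR4-KO + EtOH replicate 1 was the highest in 8 of the 11, against 39 of the 190. Of the 9 lower ones, TLR4-KO replicate 1 was the highest of its group in 8, against 61 of the 190. These precursors were picked by the same scores, and the part of the replicate 1 libraries in the differences was not tested. Without both, limma called 1 precursor, mmu-mir-3087 (difference 6.28, adjusted p = 0.0143), and 31 had an unadjusted p under 0.05.

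**Figure D3:**
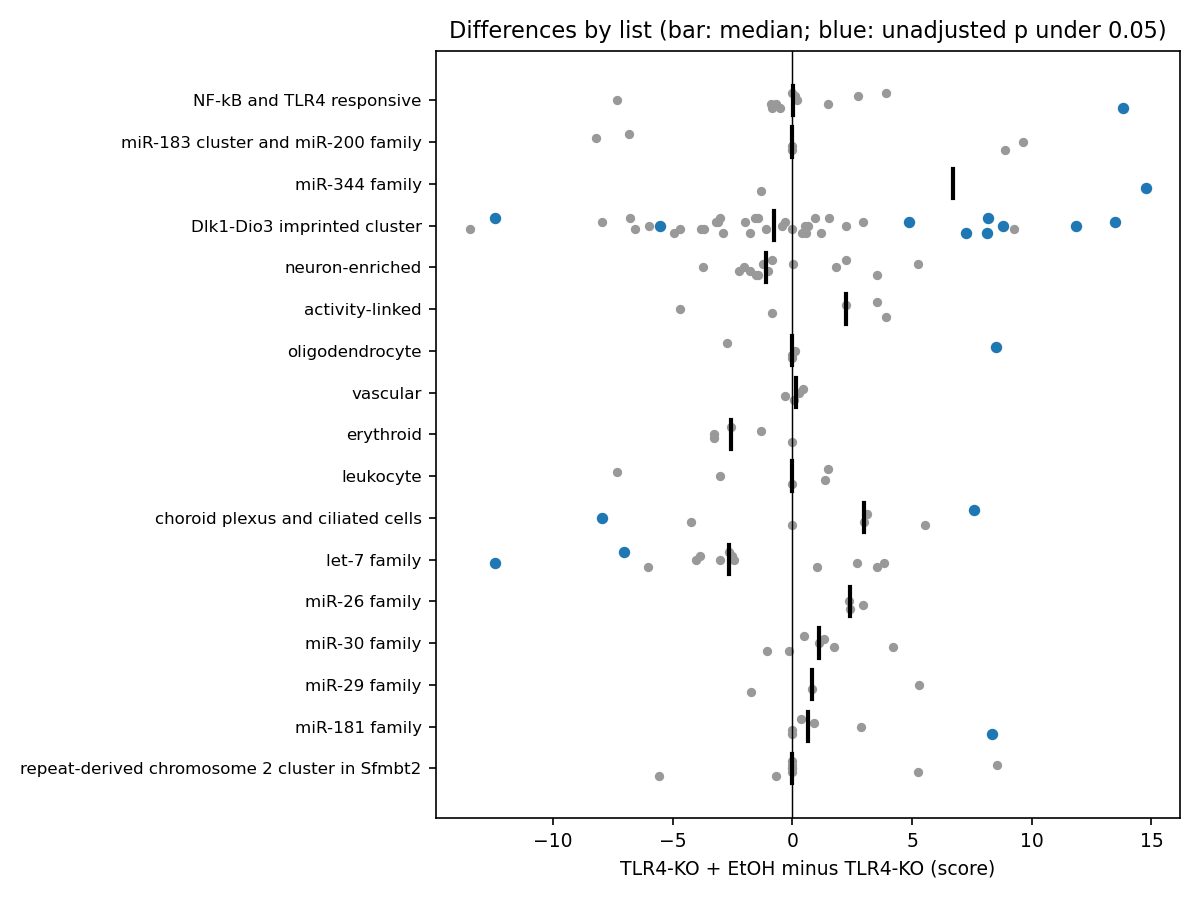
Differences of TLR4-KO + EtOH minus TLR4-KO in deposited score units (x axis) for the members above 0 in any library of each of the 17 lists (y axis), with the median as a black bar and members with an unadjusted p under 0.05 in blue. The medians run from −2.66 in the let-7 family to 6.72 in the miR-344 family, which has 2 members above 0.

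Neuron-enriched miRNAs (14 of 14 above 0) were higher in 5 and lower in 9, with a median difference of −1.11, and the groups overlapped in each. Their summed score was 701, 727 and 730.0 in TLR4-KO and 723, 713 and 713 with alcohol. mmu-mir-124-3, from the miRNA that represses non-neuronal transcripts in neurons, was at 36.7, 42.5 and 44.7 and at 46.7, 42.1 and 40.5 (difference 1.82). In replicates 2 and 3 both alcohol scores lay below both TLR4-KO scores, so its direction turned without both libraries of replicate 1. The other miR-124 precursors, mmu-mir-124-1 and mmu-mir-124-2, were lower with alcohol, with differences of −1.44 and −1.79. All miR-124 precursors are outside the rule for named precursors. The most abundant members mmu-mir-138-1 and mmu-mir-138-2 had differences of 2.22 and 3.55. The 5 activity-linked precursors (mmu-mir-132, mmu-mir-212, mmu-mir-134, mmu-mir-138-1 and mmu-mir-138-2), of which the mmu-mir-132 and mmu-mir-212 pair is induced by CREB, were higher in 3 and lower in 2, with a median of 2.22, and none had an unadjusted p under 0.05.

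Among glial markers, mmu-mir-338, which lies in an intron of Aatk and promotes the maturation of oligodendrocytes, was at 29.2, 36.5 and 35.5 in TLR4-KO and at 45.2, 40.4 and 41.2 with alcohol. The groups did not overlap (difference 8.5, SE 3.10, limma adjusted p = 0.556), and without both libraries of replicate 1 the difference was 4.76. Of the 5 listed oligodendrocyte precursors 2 were higher, 1 lower and 2 equal, with a median of 0. The equal ones were mmu-mir-219a-1 and mmu-mir-219a-2, at 0 in the 6 libraries. The most abundant member, mmu-mir-3065, on the strand opposite mmu-mir-338, had a difference of −2.73, and of −0.624 at its smallest with 1 library left out. The summed score was 115, 125.1 and 106 in TLR4-KO and 129, 116 and 119 with alcohol, with overlap. The part of oligodendrocyte numbers in the scores of mmu-mir-338, or of mmu-mir-3087 in Abca2, was not tested.

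Vascular precursors (4 of 5 above 0) were higher in 3 and lower in 1, with a median of 0.166, none with an unadjusted p under 0.05. The most abundant, mmu-mir-143 and mmu-mir-145a of smooth muscle and pericytes, had differences of 0.273 and 0.421, and mmu-mir-126a of endothelial cells had 0.0601. The difference of mmu-mir-145a was −0.436 without both libraries of replicate 1, and that of mmu-mir-143 ranged from −1.09 to 1.37 with 1 library left out. Erythroid precursors were higher in 0, lower in 4 and equal in 1 of 5, with a median of −2.58, and the groups overlapped. mmu-mir-451a, with the same scores as mmu-mir-451b, was at 26.3, 33.8 and 33.8 and at 24.5, 27.7 and 31.9 (difference −3.28), mmu-mir-486a and mmu-mir-486b had −1.33 and −2.58 (up to 0.0228 and 0.0534 with 1 library left out), and mmu-mir-144 was at 0. The summed erythroid score was 258, 272 and 278 in TLR4-KO and 244, 260.1 and 273 with alcohol.

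Leukocyte precursors (5 of 6 above 0) were higher in 2 and lower in 3, with a median of −0.0291, which turned to 0.0233 after centring. mmu-mir-150, a miRNA of mature lymphocytes, was at 81.1, 78.0 and 76.8 in TLR4-KO and at 74.8, 76.0 and 76.0 with alcohol. The groups did not overlap (difference −3.01, SE 1.43, limma adjusted p = 0.81), and the difference of mmu-mir-150 was −1.76 at its smallest with 1 library left out. mmu-mir-142a, found in all blood cell lineages, had a difference of −0.0291, and mmu-mir-223 was at 0. The most abundant member was mmu-mir-150, and the summed score was 131, 152 and 143.1 in TLR4-KO and 131, 129.7 and 142.7 with alcohol. The part of leukocytes in the scores of mmu-mir-150 was not tested.

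Precursors of the choroid plexus and ciliated cells (7 of 9 above 0, mmu-mir-1264 only in libraries of WT mice) were higher in 4, lower in 2 and equal in 1, with a median of 3.01. mmu-mir-204, from an intron of Trpm3 and the most abundant of them, was at 79.9, 83.7 and 85.2 and at 87.7, 85.2 and 92.4, with overlap at 85.2 (difference 5.52). mmu-mir-1298, from an intron of Htr2c like mmu-mir-448, had a difference of 3.01, which ranged from 0.78 to 5.69 with 1 library left out. mmu-mir-34b was at 6.87, 0 and 17.0 in TLR4-KO and at 0 with alcohol (difference −7.96). The summed score was 179.9, 192 and 225 in TLR4-KO and 206, 190.3 and 221 with alcohol, with overlap, and its part in the scores of mmu-mir-448 was not tested.

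The remaining families were described by the same counts. All 3 miR-26 precursors were higher (median 2.42), and of 7 miR-30 precursors 5 were higher and 2 lower (median 1.10), without any unadjusted p under 0.05. mmu-mir-26a-1 had a difference of 2.42 and mmu-mir-26a-2 of 2.95, and in both TLR4-KO replicate 1 was the lowest of the 6 libraries. These differences were −0.434 and 0.434 without both libraries of replicate 1. mmu-mir-30d and mmu-mir-30a had differences of 0.464 and −1.06, the latter being 0.864 without both libraries of replicate 1. Of the miR-29 family 3 of 4 were above 0, 2 higher and 1 lower (median 0.804), among them mmu-mir-29c with 5.29 and mmu-mir-29b-2 with 0.804. mmu-mir-29c was at 34.1, 29.6 and 0 in TLR4-KO and at 27.7, 27.7 and 24.2 with alcohol, and without the library at 0 its difference was −5.32. That of mmu-mir-29b-2 was −3.89 with each 0 raised and −1.10 without both libraries of replicate 1. In the miR-181 family 4 of 6 were higher and 2 equal (median 0.628), the equal ones being mmu-mir-181a-1, at 135 in each library, and mmu-mir-181a-2, at 124. The highest score is the same in all libraries, so a precursor that is highest in each, as mmu-mir-181a-1 is, cannot differ on this scale. mmu-mir-181d was at 44.7, 50.6 and 49.2 in TLR4-KO and at 62.0, 54.3 and 53.2 with alcohol, without overlap (difference 8.34, SE 2.56, limma adjusted p = 0.407). Without both libraries of replicate 1 it was 3.87. The mature miR-181a and miR-181d share the seed ACAUUCA, which 6 precursors of the table with a RefSeq sequence hold, and differ after it.
miR-181a-5p: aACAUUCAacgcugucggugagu
miR-181d-5p: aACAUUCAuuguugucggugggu
The repeat-derived cluster in an intron of Sfmbt2 had 9 of 28 precursors above 0 in any library, of which 5 were at 0 in the 6 libraries compared, 2 were higher and 2 lower. Its most abundant members mmu-mir-669c and mmu-mir-467d had differences of −5.58 and 8.53, with groups that overlapped. With 1 library left out these ranged from −8.89 to −2.49 and from 6.06 to 13.5. Of the 17 lists, the miR-344 family alone held a called precursor.

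Of the other miRNAs that the study assessed by RT-qPCR, mmu-mir-351 was at 65.1, 63.0 and 65.6 in TLR4-KO and at 63.0, 62.3 and 62.3 with alcohol (difference −2.00, SE 1.27). The groups shared 1 score. mmu-mir-1981 and mmu-mir-7224 had differences of −3.23 and 0.144, with no call.

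Whether alcohol acted differently in the genotypes was tested as the alcohol difference in TLR4-KO less that in WT. By limma 7 precursors were called (1.19%), while an unadjusted p under 0.05 was found for 74 (12.6%). mmu-mir-3087 and mmu-mir-344d-3 were called in this test as in the alcohol comparison. With the replicate block 3 were called, and mmu-mir-3087, mmu-mir-344d-3, mmu-mir-351 and mmu-mir-744 were not among them. In mmu-mir-744, mmu-mir-125a, mmu-mir-351 and mmu-mir-125b-2 the WT libraries had a positive alcohol difference (6.73, 4.22, 7.93 and 4.77) and the TLR4-KO libraries a difference of −5.20, −0.207, −2.00 and 0.207. mmu-mir-125a was chosen after its values were seen. mmu-mir-125a, mmu-mir-351 and mmu-mir-125b-2 share a seed, CCCUGAG, with mmu-mir-125b-1, and the last had a difference of the effects of −2.53 that was not called. The mature miR-125b and miR-351 are shown for this shared seed, and miR-744 because its seed is another.
miR-125b-5p: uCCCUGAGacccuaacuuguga
miR-351-5p: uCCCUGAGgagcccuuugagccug
miR-744-5p: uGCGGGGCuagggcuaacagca
The precursors mmu-mir-125b-1 and mmu-mir-125b-2 give the same mature 5p sequence, so their reads cannot be told apart by it.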

How the data were processed

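The authors deposited 1 score per miRNA precursor and library, a normalized value whose levels are shared between libraries. Judged from the values, the scores lie on a scaled log scale and appear matched between libraries by rank. The submitters' processing notes name FastQC 0.11.6, cutadapt 1, Bowtie2 2.2.5, TopHat and GRCm38. The paper names Trimmed Mean of M values as its normalization of the counts. The formula that scales the scores is not given in the sources used here. The scores are not counts, so the edgeR count test of the study's methods was not run. The functions lmFit, contrasts.fit and eBayes of limma 3.58.1 (R 4.3.3) were applied to the scores of the 12 libraries with 1 mean per group, without a filter, in two-sided tests. The fit was checked on simulated data, and the outcome is not given here.

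Named precursors are those called, the 12 higher and 12 lower ones with the smallest unadjusted p among those above 0 in at least 3 libraries, the members of the lists with an unadjusted p under 0.05 or among the 2 highest means, and those of the miRNAs the study assessed by RT-qPCR, 71 in all. The members and lists were chosen with earlier results of these data known, and values of the study's supplementary tables had been seen when the rule was written.

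The labels give only replicate numbers. Deviations from the group means of TLR4-KO and TLR4-KO + EtOH libraries of the same number correlated over 190 precursors by 0.133, 0.101 and 0.153, each over 0.1, so the numbers were treated as pairs in an alternative with a replicate block. WT and WT + EtOH libraries of the same number correlated by −0.109, 0.0539 and 0.124, and libraries of different numbers by up to 0.246 (WT replicate 2 and WT + EtOH replicate 1), so the block over all 12 libraries has little support in the WT groups.

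Alternatives were quantile normalization, centring each library on the median of precursors above 0 in all libraries, filters of at least 3 or all 12 libraries above 0, each 0 raised to the lowest score of its library, the 6 libraries alone, the replicate block, robust or trended eBayes, near-identical precursors (within 1%) merged, and each library left out in turn. The deposited scores already share their levels and nearly the same median between libraries. Quantile normalization and centring are therefore not independent checks of the normalization. Leaving out both libraries of replicate 1 was chosen after seeing the data. Positions came from GENCODE M21 (GRCm38), with 556 of 589 precursors found and 65 of the 71 named. Python 3.11.15 with pandas 2.3.3, numpy 2.4.6 and matplotlib 3.10.9 made the summaries and figures.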

Additional observations from a re-analysis of the deposited data

Results flagged for a closer look

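In 7 precursors the alcohol effect differed between the genotypes by limma's test of the difference of the effects (TLR4-KO less WT). Higher in TLR4-KO than in WT were mmu-mir-344d-3, by 18.4 (limma adjusted p = 0.028), mmu-mir-3087, by 5.54 (limma adjusted p = 0.028), and mmu-mir-6952, by 4.56 (limma adjusted p = 0.000305). mmu-mir-6952 was at 0 in the 6 TLR4-KO libraries, at 4.20, 4.23 and 5.23 in WT and at 0 in WT + EtOH, so its difference comes from the WT libraries. These WT scores are the lowest or second lowest level of their libraries (29, 15 and 25 precursors at that level), and so stand at the edge of detection. The other 4 had a negative difference of the effects, −11.9 for mmu-mir-744 (limma adjusted p = 0.0258), −9.93 for mmu-mir-351 (limma adjusted p = 0.0416), −4.56 for mmu-mir-125b-2 (limma adjusted p = 0.00073) and −4.43 for mmu-mir-125a (limma adjusted p = 0.028). mmu-mir-6952 and mmu-mir-125a are outside the rule for named precursors and were chosen after their values were seen. mmu-mir-125b-2 was at 115 in each TLR4-KO and TLR4-KO + EtOH library, and its difference of the effects likewise comes with the WT difference of 4.77. In all WT + EtOH libraries mmu-mir-125b-2 was at 115.498 and mmu-mir-125a at 114.878 (SD 0). In the TLR4-KO and TLR4-KO + EtOH libraries the pair took only these levels. The SE and p of both thus depend on fixed levels with almost no spread. The median of the miR-26 family was at 114.878 in each WT library, and its part was not tested. With the replicate block the calls of mmu-mir-3087, mmu-mir-344d-3, mmu-mir-351 and mmu-mir-744 were lost, and with each 0 raised to the lowest score of its library mmu-mir-744 alone of the 7 stayed called. Quantile normalization ended the call of mmu-mir-3087 alone of these. Without both libraries of replicate 1, mmu-mir-6952 kept its call, as did mmu-mir-125b-2 and also mmu-mir-3087, and the rest lost theirs. In fits that each lacked 1 library, the call of mmu-mir-351 held only when WT replicate 1 was absent. With only precursors above 0 in at least 3 libraries, mmu-mir-344d-3, mmu-mir-351 and mmu-mir-744 stayed called and the other 4 did not. With only those above 0 in all 12, which takes out mmu-mir-3087, mmu-mir-344d-3 and mmu-mir-6952, mmu-mir-351 and mmu-mir-744 stayed called and mmu-mir-125a and mmu-mir-125b-2 did not.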

How the results depend on the processing

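Of the 71 named precursors, 42 kept their direction and side of the threshold in every alternative run. The 2 calls became 0 with quantile normalization (36 with an unadjusted p under 0.05), with only precursors above 0 in all 12 libraries (22), a filter that removes both called precursors before the test, with each 0 raised (46) and with the compared groups alone (25, and 25 with the replicate block), and 1 without both libraries of replicate 1, an alternative chosen after seeing the data. With the replicate block for all 12 libraries there were 3 calls, mmu-mir-221 being added, and it changed no other call of a named precursor, while the 7 calls for the difference of the effects became 3. That number was 13 with only precursors above 0 in at least 3 libraries, 3 of the 7 being among them, where the alcohol comparison had 3 calls (2 higher and 1 lower). Without 1 library the calls for alcohol ranged from 0 (without TLR4-KO + EtOH replicate 2) to 4 (without WT + EtOH replicate 3), with 1 left when any WT library, TLR4-KO + EtOH replicate 1 or WT + EtOH replicate 2 was taken out. Those for the difference of the effects ranged from 2 (without TLR4-KO + EtOH replicate 2) to 15 (without WT + EtOH replicate 1), with 4 without WT replicate 2 or 3, WT + EtOH replicate 2 or TLR4-KO replicate 2, and 3 without TLR4-KO + EtOH replicate 1 or WT + EtOH replicate 3. In these fits mmu-mir-6952 was always called for the difference of the effects, and so was mmu-mir-125b-2, both with almost no spread within groups. No other precursor was called in that test when TLR4-KO + EtOH replicate 2 was absent. The call of mmu-mir-351 held only when WT replicate 1 was absent. With any WT library absent mmu-mir-3087 was not called, nor was mmu-mir-344d-3. Among other fits, mmu-mir-744 lost its call without replicate 2 or 3 of WT, and mmu-mir-125a without replicate 2 or 3 of WT + EtOH. The cause was not tested.

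Signs turned in 22 named precursors. With each 0 raised, the difference was −4.31 for mmu-mir-3087, −2.26 for mmu-mir-326, mmu-mir-448 and mmu-mir-714 and −3.89 for mmu-mir-29b-2, which follows from the unequal lowest scores of the libraries. After centring it was 0.0233 for mmu-mir-142a and 0.0129 for mmu-mir-9-2. Without both libraries of replicate 1 it was −0.436 for mmu-mir-145a, −0.434 for mmu-mir-26a-1, −1.10 for mmu-mir-29b-2, 0.864 for mmu-mir-30a, 9.01 for mmu-mir-344b and 0.0814 for mmu-mir-9-2. Without 1 library the differences ranged from −2.90 to 2.99 for mmu-mir-142a, −1.09 to 1.37 for mmu-mir-143, −0.877 to 1.95 for mmu-mir-145a, −1.51 to 7.53 for mmu-mir-21a, −0.578 to 3.91 for mmu-mir-26a-1, −0.0751 to 4.46 for mmu-mir-26a-2, −6.27 to 7.55 for mmu-mir-29b-2, −5.32 to 11.7 for mmu-mir-29c, −2.79 to 1.53 for mmu-mir-30a, −0.711 to 1.87 for mmu-mir-30d, −10.8 to 7.08 for mmu-mir-344b, −2.05 to 0.0228 for mmu-mir-486a, −4.90 to 0.0534 for mmu-mir-486b, −0.145 to 2.31 for mmu-mir-541, −0.932 to 1.26 for mmu-mir-7224, −1.23 to 1.66 for mmu-mir-9-1, −1.46 to 1.5 for mmu-mir-9-2 and −1.96 to 1.33 for mmu-mir-9-3. None of these 18 was called. The depth is not given in the deposited table, which limits the reading of scores at the lowest levels. The paper gives numbers of reads by group.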

Other observations

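Scores were above 0 in at least 2 libraries for 240 precursors of TLR4-KO and for 250 of TLR4-KO + EtOH. mmu-mir-872, chosen after its values were seen, was at 4.20, 11.3 and 17.0 in TLR4-KO, the same scores as mmu-mir-3473d and mmu-mir-3470a, and at 22.4, 24.5 and 17.5 with alcohol, without overlap (limma adjusted p = 0.461).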
